A study of Mus musculus with 12 samples.

Results

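Cortical inhibitory interneurons are commonly told apart by the neuropeptides they release and the calcium-binding proteins they hold. The 10 genes described here encode 7 neuropeptides (Npy, Vip, Crh, Pdyn, Sst, Cort and Cck) and 3 calcium-binding proteins (Pvalb, Calb1 and Calb2). They were taken as every non-control probe of the arrays whose gene name is one of these 10, which gave 13 probes at 22 spots, out of 43020 non-control spots. After the filters on spot quality and brightness, 11 of these probes at 20 spots remained, and all members but Calb2 (9 of 10) were among the 17302 genes quantified.

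Interneuron peptides are made as larger precursors, packed into dense-core vesicles and released together with GABA under sustained firing. Somatostatin (Sst) and parvalbumin (Pvalb) mark the main interneuron classes born in the medial ganglionic eminence. Vasoactive intestinal peptide (Vip) marks cells that mostly inhibit other interneurons. Neuropeptide Y (Npy) is found in neurogliaform cells and in many Sst cells. Calbindin (Calb1) and calretinin (Calb2) buffer calcium in overlapping sets of interneurons, and cholecystokinin (Cck) and calbindin are also made by excitatory cells.

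RNA of whole cortex was compared between 3 groups of 4 female adult mice, about 12 weeks old by the study's methods. MRL/lpr mice carry the lpr mutation of the death receptor gene Fas and develop a lupus-like disease, and MRL/+ mice (labelled MRL/MpJ) share the MRL background without it. Fn14ko mice (labelled Fn14koMRL) are MRL/lpr mice that lack Fn14, the receptor of the cytokine TWEAK, after 8 generations of backcrossing, so lpr is common to both disease groups and the loss of Fn14 is in the whole animal. The lpr groups came from one breeder and the MRL/+ mice were bought from another, and that difference cannot be told apart from genotype. Mice were hybridized in pairs from one group, the odd replicate numbers in Cy3 (green) and the even ones in Cy5 (red), and a slide carried the 2 arrays of 1 group only, so that group and slide cannot be told apart either.

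Signals are given as multiples of the median retained spot of the same mouse, after background correction, and a difference between groups is a log2 fold change from a limma model with terms for dye and array. Levels of different genes cannot be compared on this scale, because each probe binds with its own efficiency. Tnfrsf12a, which encodes Fn14, had a signal of 0.604 to 0.777 in Fn14ko, 0.943 to 1.28 in MRL/+ and 1.38 to 1.90 in MRL/lpr. It was lowest in Fn14ko but well above background in all 4 of those mice, and the difference was called against MRL/lpr (1.27 higher in MRL/lpr, adjusted p = 0.00288) and not against MRL/+ (-0.67, adjusted p = 0.104). The highest MRL/+ value of Tnfrsf12a, 1.28 in the red mouse 4, was not well above background. Fas, at 0.164 to 0.284 in MRL/lpr, 0.171 to 0.331 in Fn14ko and 0.186 to 0.647 in MRL/+, overlapped between groups (MRL/lpr less MRL/+ -1.14, adjusted p = 0.10). It was well above background in 3 MRL/lpr, 4 Fn14ko and 2 MRL/+ mice. Its highest values, 0.647 and 0.643 in the red MRL/+ mice 2 and 4, were not well above background. Where either probe lies relative to the changed part of its gene is not known. The MRL/+ mice read in red stood apart, since the scanner software placed 35.0% (mouse 2) and 21.2% (mouse 4) of non-control spots well above background there, against at least 56.6% for the other 10 mice. In bulk RNA, fewer cells of a type and less RNA per cell cannot be told apart.

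The probe of Npy joins 2 stretches of mm9 chromosome 6 that lie 3763 bases apart from end to end (chr6:49773743-49777505, plus strand), so it reads spliced message. It is shown with the probe of Calb2 (chr8:112678555-112678614, minus strand), whose single spot was dropped, and with the probe of Pdyn that was too dim to keep (chr2:129513968-129514027, minus strand), since these decide which members could be measured. The sequences are those in the array files.

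Npy probe: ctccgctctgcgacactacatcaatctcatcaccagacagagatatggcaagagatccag
Calb2 probe: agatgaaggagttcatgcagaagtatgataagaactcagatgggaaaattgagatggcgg
Pdyn probe, dim: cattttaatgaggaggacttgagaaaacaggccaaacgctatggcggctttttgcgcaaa

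The promoters of Npy, Vip and Pvalb, which were raised in MRL/lpr, are set beside that of Sst, which had near-equal group means. RefSeq's table for GRCm38.p6 holds a promoter for 7 of the 10 genes (9 start sites) and has no entry for Crh, Calb1 or Calb2. Each line gives the 120 bases before the transcription start in the direction of transcription, from the furthest upstream start where 2 are listed. Capitals mark every TGACG (the core of the cyclic AMP response element) and every TATAAA on either strand. The regions are chr6:49822590-49822709 (plus strand) for Npy, chr10:5639098-5639217 (plus) for Vip, chr15:78206401-78206520 (minus) for Pvalb and chr16:23890845-23890964 (minus) for Sst.

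Npy promoter: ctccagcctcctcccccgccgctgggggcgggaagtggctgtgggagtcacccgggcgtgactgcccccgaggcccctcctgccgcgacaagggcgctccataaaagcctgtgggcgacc
Vip promoter: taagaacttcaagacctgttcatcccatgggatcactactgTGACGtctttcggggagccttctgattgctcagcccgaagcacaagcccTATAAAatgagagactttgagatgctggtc
Pvalb promoter: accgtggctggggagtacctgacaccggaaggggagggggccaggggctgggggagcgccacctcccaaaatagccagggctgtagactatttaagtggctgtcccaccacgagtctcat
Sst promoter: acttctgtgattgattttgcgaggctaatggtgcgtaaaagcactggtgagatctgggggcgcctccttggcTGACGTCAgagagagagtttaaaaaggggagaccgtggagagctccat

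Within 250 bases before the start, the full palindrome TGACGTCA was found in Sst, whose match begins 48 bases before the start, and in none of the other members with an entry. It occurs in 1.55% of all 32851 promoters of the table. TGACG alone, which the palindrome holds on both strands, was found in Sst, Vip, Cck and Cort and in 17.8% of all promoters. Among the members with an entry TATAAA was found only in Vip, at 3 places, one of them 30 bases before the start, and in 12.4% of all promoters. No motif searched was common to Npy, Vip and Pvalb in this window, which says nothing about the factors that bind there.

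MRL/lpr cortex held more Npy, Vip, Pvalb and Crh signal than MRL/+ cortex, by 1.93-fold to 2.58-fold, and these were the 4 members called (adjusted p under 0.05) of the 9 tested. Of all genes tested, 14.4% were called in this comparison, 6.02% as higher. Between MRL/lpr and Fn14ko, Vip and Crh were called, again higher in MRL/lpr, against 4.57% of all genes (2.58% higher). Between Fn14ko and MRL/+, no member was called, against 0.959% of all genes. At an unadjusted p under the threshold of 0.05, that last comparison held 4 members (Npy, Pvalb, Pdyn and Cort, all with the higher mean in Fn14ko) and 3781 genes, and the methods' t-test held 1 member, Pvalb, unadjusted and 0 after adjustment. With no filter on dim spots, when 29149 genes were tested, no member was called in any comparison. The differences of Npy, Vip and Pvalb from MRL/+ were then 1.97, 1.86 and 1.63, each with an adjusted p of 0.158. These counts describe the genes and do not test them as a set.

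**Figure D1:**
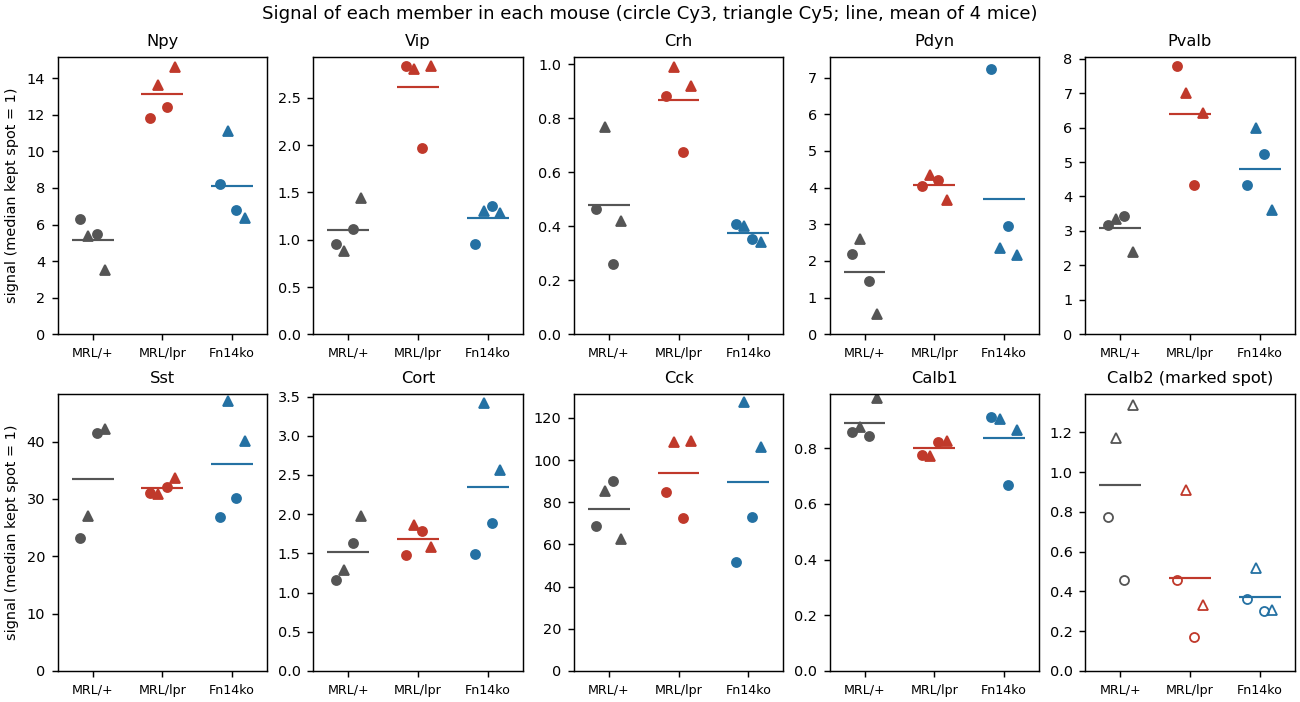
Signal of each member (vertical axis, multiples of the median retained spot, from 0) in each of the 4 mice of MRL/+, MRL/lpr and Fn14ko, with circles for Cy3, triangles for Cy5 and a line at the group mean. The 4 MRL/lpr mice lie above all MRL/+ mice for Npy, Vip, Pdyn and Pvalb, whereas Sst, Cort and Cck overlap, and Calb2 (open points) comes from a spot that the scanner software marked.

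Npy encodes a peptide that damps transmitter release. Its signal was 11.8, 13.7, 12.4 and 14.6 in MRL/lpr mice 1 to 4, 8.20, 11.1, 6.79 and 6.34 in Fn14ko mice, and 6.32, 5.36, 5.51 and 3.52 in MRL/+ mice. The 3 groups did not overlap, MRL/lpr lying highest and MRL/+ lowest, although the lowest Fn14ko mouse and the highest MRL/+ mouse were nearly equal. The means were 13.1 ± 1.25, 8.10 ± 2.14 and 5.18 ± 1.18 (SD, n = 4). MRL/lpr exceeded MRL/+ by 1.37 on the log2 scale (SE 0.26, adjusted p = 0.00566), a fold of 2.58. The differences of 0.64 between Fn14ko and MRL/+ (adjusted p = 0.19) and of 0.73 between MRL/lpr and Fn14ko (adjusted p = 0.148) did not pass the threshold. Their 95% intervals ran from 0.08 to 1.21 and from 0.16 to 1.29. With the green and the red mice taken separately, the MRL/lpr excess over MRL/+ was 1.04 and 1.70. For groups of 4 that do not overlap, the 2-sided exact permutation test gives p = 0.0286, the smallest that the 70 divisions of 8 mice allow.

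Vip, the peptide of interneurons that inhibit other interneurons, was the member with the lowest adjusted p in both comparisons that involve MRL/lpr. Its signal was 2.83, 2.80, 1.97 and 2.83 in MRL/lpr, 0.956, 1.30, 1.36 and 1.29 in Fn14ko mice, and 0.959, 0.879, 1.12 and 1.44 in MRL/+. Every MRL/lpr mouse lay above every other mouse, and the remaining groups overlapped throughout. The excess of MRL/lpr was 1.26 over MRL/+ (SE 0.21, adjusted p = 0.00293) and 1.09 over Fn14ko (SE 0.21, adjusted p = 0.0109), whereas Fn14ko and MRL/+ differed by 0.17 (95% interval -0.29 to 0.63, adjusted p = 0.602). The probe was well above background in all 8 mice of the lpr groups and in 3 of 4 MRL/+ mice. The excess over MRL/+ was 1.19 in green and 1.32 in red. No single mouse decided either call, while without the first array of MRL/lpr or of Fn14ko the excess over Fn14ko missed the threshold (0.96 in both fits, adjusted p = 0.0561 and 0.132).

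Crh, corticotropin-releasing hormone, is made in cortex by a subset of Vip and Sst interneurons. Its signal was 0.882, 0.990, 0.674 and 0.920 in MRL/lpr, 0.410, 0.399, 0.352 and 0.343 in Fn14ko mice, and 0.464, 0.769, 0.261 and 0.422 in MRL/+. MRL/lpr lay wholly above Fn14ko, but one MRL/+ mouse, read in red, reached into the MRL/lpr range. The excess of MRL/lpr was 1.19 over Fn14ko (SE 0.28, adjusted p = 0.0263) and 0.95 over MRL/+ (SE 0.28, adjusted p = 0.0385), and for the latter the exact permutation p was 0.0571. In MRL/+, 2 of 4 mice had Crh well above background. Its call against MRL/+ was lost on leaving out any one of the 4 MRL/lpr mice or MRL/+ mouse 4 (adjusted p between 0.0523 and 0.131), and that against Fn14ko on leaving out MRL/lpr mouse 1 or Fn14ko mouse 2 or 4 (adjusted p between 0.0559 and 0.0935).

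Pdyn encodes prodynorphin, the precursor of the dynorphin opioid peptides, and is also strongly expressed in striatum and dentate gyrus. Its kept probe gave 4.04, 4.35, 4.20 and 3.67 in MRL/lpr, 7.22, 2.36, 2.97 and 2.16 in Fn14ko mice, and 2.20, 2.60, 1.44 and 0.543 in MRL/+. All MRL/lpr mice lay above all MRL/+ mice, while Fn14ko spanned both because of mouse 1. The difference between MRL/lpr and MRL/+ was 1.48 (SE 0.48, adjusted p = 0.0565). Without MRL/+ mouse 2 it was 1.86 (adjusted p = 0.0115), and without MRL/+ mouse 4 it was 1.16 (adjusted p = 0.232). Fn14ko and MRL/+ differed by 1.15 (adjusted p = 0.199), and by 0.83 (adjusted p = 0.189) without Fn14ko mouse 1. That mouse also had a summed signal of 134.6 over 10 striatal marker genes, against 15.6 to 34.8 in the other 11 mice. The same sum was 27.2 to 34.8 in MRL/lpr and 15.6 to 18.9 in MRL/+, without overlap, and the part of striatal RNA in the Pdyn signals was not tested. The second Pdyn probe, whose sequence is given above, was well above background in 5 of 12 mice and gave no usable value.

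Pvalb encodes parvalbumin, the slow calcium buffer of fast-spiking basket and chandelier cells. Its signal was 7.78, 7.01, 4.33 and 6.41 in MRL/lpr, 4.32, 6.0, 5.23 and 3.62 in Fn14ko mice, and 3.16, 3.35, 3.43 and 2.40 in MRL/+. All mice of both lpr groups lay above all MRL/+ mice, and the lpr groups overlapped each other. MRL/lpr exceeded MRL/+ by 1.03 (SE 0.27, adjusted p = 0.0264), Fn14ko exceeded MRL/+ by 0.62 (SE 0.27, adjusted p = 0.213), and MRL/lpr and Fn14ko differed by 0.41 (95% interval -0.18 to 1.00, adjusted p = 0.474). The 2 Pvalb probes on mm9 chromosome 15 moved the same way by unequal amounts: the excess of MRL/lpr over MRL/+ was 1.07 (adjusted p = 0.0249) at chr15:78021951-78022010 and 0.60 (adjusted p = 0.132) at chr15:78021549-78021608, which was well above background in 2 of 4 MRL/+ mice. The call was lost without MRL/lpr mouse 1 or 4 or MRL/+ mouse 4 (adjusted p between 0.051 and 0.163). With the scanner software's processed signal the excess was 0.30 (adjusted p = 0.364).

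**Figure D2:**
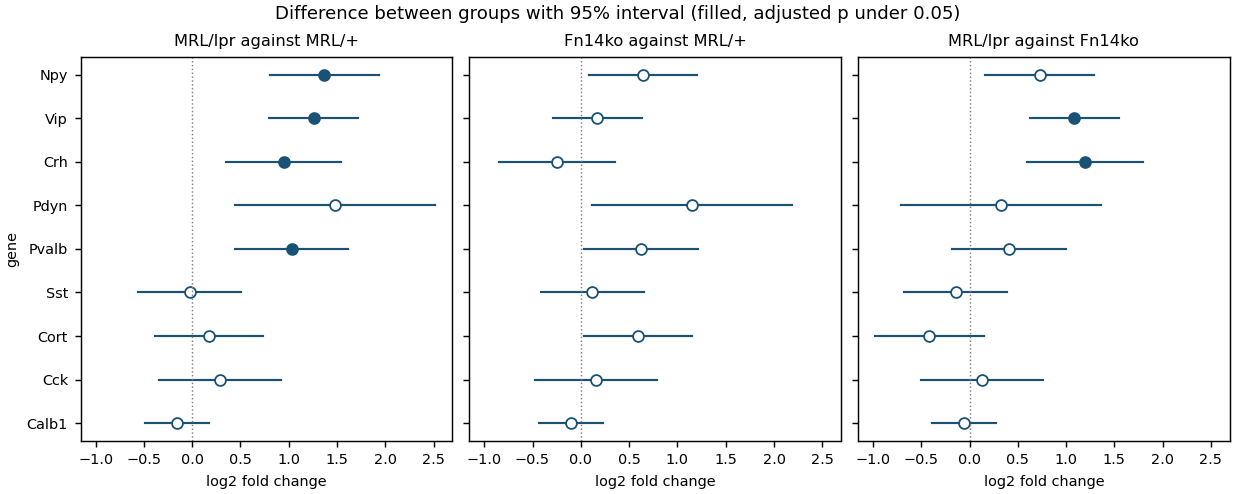
Log2 fold change of the 9 quantified members in the 3 comparisons (horizontal axis), with 95% intervals of the limma fit and filled points where the adjusted p was under 0.05. The left panel has filled points for Npy, Vip, Crh and Pvalb, the right panel for Vip and Crh, and the middle panel has none.

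Sst, the peptide of dendrite-targeting Martinotti cells, showed no difference in means that the fit could separate from 0. Its signal was 31.0, 30.9, 32.0 and 33.7 in MRL/lpr, 26.9, 47.2, 30.2 and 40.1 in Fn14ko mice, and 23.2, 27.0, 41.6 and 42.2 in MRL/+. The MRL/lpr mice lay close together inside the wider ranges of both other groups. The difference between MRL/lpr and MRL/+ was -0.02, with a 95% interval from -0.56 to 0.51 (adjusted p = 0.953). Fn14ko differed from MRL/+ by 0.12 (adjusted p = 0.762), and MRL/lpr from Fn14ko by -0.14 (adjusted p = 0.828). With the scanner software's processed signal the difference between MRL/lpr and MRL/+ was -0.46 (adjusted p = 0.0422), a call that did not arise under any other setting tried.

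Sst was the only member whose probe was printed more than once, at 10 spots, which shows how far a single spot can be trusted. Within one mouse the highest of the 10 spots exceeded the lowest by 1.60-fold to 2.69-fold in 10 of the 12 mice, and by 6.89-fold and 16.0-fold in the red MRL/+ mice 2 and 4. Read from each spot alone, the difference between MRL/lpr and MRL/+ ran from -0.41 to 0.87, with 5 of 10 spots above 0. Between Fn14ko and MRL/+ it ran from -0.23 to 1.12 (8 of 10 above 0), and between the lpr groups, MRL/lpr against Fn14ko, from -0.42 to 0.19 (2 of 10 above 0). The SD between spots was 0.38, 0.42 and 0.17 in these comparisons, against medians of 0.21, 0.22 and 0.16 over the 30 probes with 10 retained spots. All other members rest on 1 spot a probe, so that this error cannot be separated for them.

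**Figure D3:**
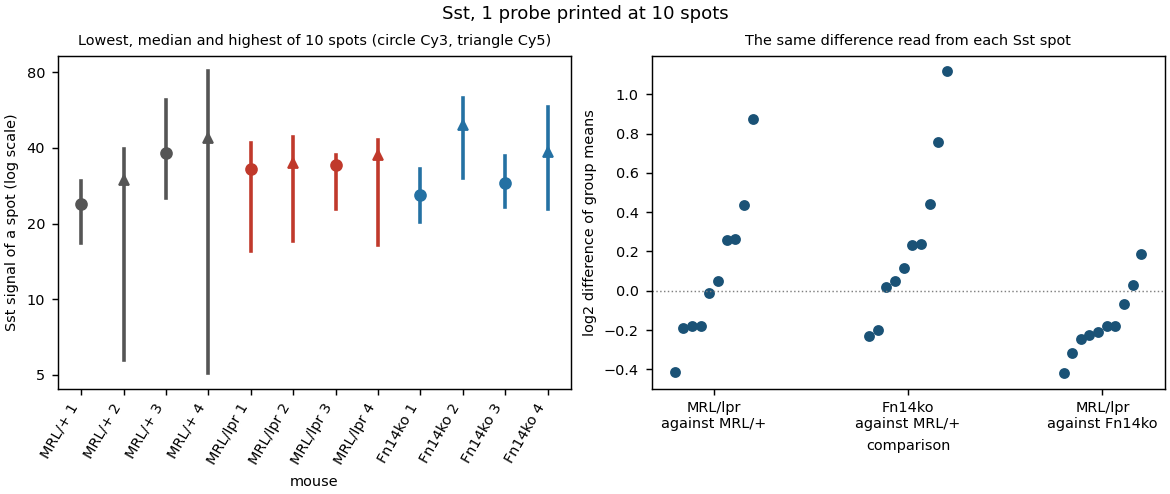
Left, the lowest, median and highest of the 10 Sst spots in each mouse (log scale, multiples of the median retained spot, circles for Cy3 and triangles for Cy5); right, the log2 difference of group means read from each spot, sorted within each comparison. The bars of MRL/+ mice 2 and 4 reach down to 5.74 and 5.06, and the single-spot differences of MRL/lpr against MRL/+ lie on both sides of 0.

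Cort, which encodes cortistatin, a relative of somatostatin found in a subset of the same cells, was not called in any comparison. Its signal was 1.47, 1.86, 1.79 and 1.58 in MRL/lpr, 1.49, 3.42, 1.89 and 2.57 in Fn14ko mice, and 1.15, 1.28, 1.63 and 1.98 in MRL/+. The groups overlapped, the red Fn14ko mice 2 and 4 being highest. Fn14ko differed from MRL/+ by 0.59 (95% interval 0.03 to 1.16, adjusted p = 0.214), which was 0.29 in green and 0.90 in red. The differences of MRL/lpr were 0.18 against MRL/+ and -0.42 against Fn14ko, with adjusted p of 0.639 and 0.432.

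Cck, a peptide of basket cells that is made by many cortical excitatory cells as well, likewise overlapped between groups. Its signal was 84.6, 109, 72.7 and 109 in MRL/lpr, 51.6, 128, 73.2 and 106 in Fn14ko mice, and 68.7, 85.5, 90.1 and 62.4 in MRL/+. In both lpr groups the red mice were the higher pair. MRL/lpr differed from MRL/+ by 0.28 and from Fn14ko by 0.13, and Fn14ko differed from MRL/+ by 0.16 (adjusted p = 0.489, 0.875 and 0.731), with 95% intervals that lay within -0.50 and 0.92 and all held 0.

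Calb1, which encodes the fast calcium buffer calbindin, was lower in every MRL/lpr mouse than in any MRL/+ mouse, by a small amount. Its signal was 0.775, 0.773, 0.822 and 0.826 in MRL/lpr, 0.910, 0.906, 0.666 and 0.864 in Fn14ko mice, and 0.859, 0.876, 0.845 and 0.980 in MRL/+. The difference between MRL/lpr and MRL/+ was -0.15 (95% interval -0.49 to 0.18, adjusted p = 0.474), and the exact permutation p was 0.0286. Groups failed to overlap in this direction for 13% of all genes, and in either direction for 23.9%, against 5 of the 9 members (Calb1 lower, and Npy, Vip, Pdyn and Pvalb higher, a direction that 10.8% of all genes showed). The probes of Calb1 disagreed: the difference was -0.74 (adjusted p = 0.0564) at chr4:15833582-15833641 and 0.04 (adjusted p = 0.864) at chr4:15835078-15835137, both on mm9. The former was well above background in 2 of 4 MRL/+ mice.

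Npy and Pvalb were higher in every Fn14ko mouse than in any MRL/+ mouse (2 of 9 members), as were 7.39% of all genes, and 13.5% did not overlap in either direction. Npy, Vip and Crh were higher in every MRL/lpr mouse than in any Fn14ko mouse (3 of 9), against 8.9% of all genes, or 20.2% in either direction.

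Calb2 encodes calretinin, found in many Vip cells. Its spot was marked as an outlier in 1 MRL/lpr channel and was therefore left out. With marked spots kept, its signal was 0.457, 0.909, 0.172 and 0.334 in MRL/lpr, 0.362, 0.515, 0.301 and 0.305 in Fn14ko mice, and 0.775, 1.17, 0.456 and 1.34 in MRL/+. MRL/+ had the highest mean, and its mice 1 and 3 lay within the MRL/lpr range. The difference from MRL/+ was -1.15 in MRL/lpr (SE 0.42, adjusted p = 0.0826) and -1.25 in Fn14ko (adjusted p = 0.149).

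Several members read close to the floor of the array in some mice. The dark corner spots of an array are negative controls, and after the same correction they read 0.697 and 0.810 in the red MRL/+ mice 2 and 4, against 0.0478 to 0.339 in the other 10. Crh in MRL/+ was 1.37, 1.10, 3.55 and 0.521 times the dark corner signal of its own channel, Vip 2.83, 1.26, 15.2 and 1.78 times, and Pdyn 0.671 times in mouse 4. Calb1 was 2.54, 1.26 and 1.21 times the dark corner signal in MRL/+ mice 1, 2 and 4, Cort was 1.84 and 2.44 times in mice 2 and 4, and Crh was 1.73 and 1.85 times in Fn14ko mice 1 and 2. The marked spot of Calb2 read 1.17 and 1.34 in MRL/+ mice 2 and 4, next to dark corner signals of 0.697 and 0.810. The levels of these genes in these mice are uncertain, so near to the negative controls. So are the results that rest on them, among them the Crh and Vip calls against MRL/+ and the Crh call against Fn14ko. The same holds for the non-overlap of Pdyn and of Calb1 and for the Calb2 differences from MRL/+. In the fit without both red MRL/+ mice, Npy, Vip and Crh were called against MRL/+ and Pvalb was not (0.88, adjusted p = 0.19). The green mice alone, with 2 a group, gave the same 3 genes, and against Fn14ko gave Vip. These fits keep MRL/+ mouse 1, where Crh was 1.37 times the dark corner signal.

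**Figure D4:**
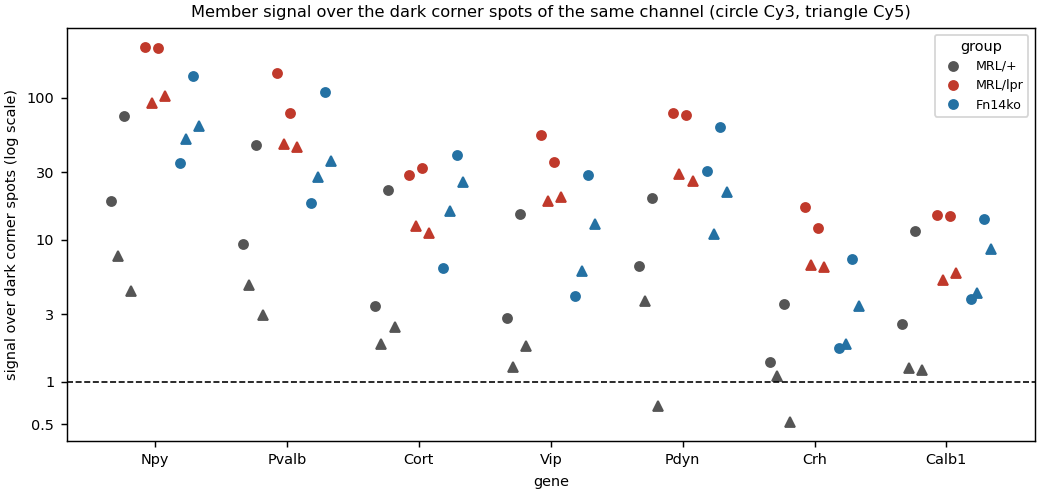
Signal of 7 members divided by the median signal of the dark corner spots of the same channel (log scale, 12 mice, circles for Cy3 and triangles for Cy5; the dashed line is 1). The Cy5 MRL/+ mice (grey triangles) lie lowest for each gene, and Crh and Pdyn of MRL/+ mouse 4 fall below the line at 0.521 and 0.671.

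The spread among the 4 mice of a group was described by the relative expression variability (REV), a variation coefficient in percent, pooled over the probes of a gene, with a correction for small n. Sst, with its 10 spots averaged, was 8.73% in MRL/lpr, against 55.2% in Fn14ko mice and 62.8% in MRL/+, while the median gene was at 31.6%, 36.8% and 52.4%. Pooled over the single spots instead, Sst was at 15.6%, 27.7% and 45.1% and the median gene at 31.5%, 36.5% and 52.1%, and the other members keep their values. Pdyn ran from 15.3% in MRL/lpr to 139% in Fn14ko mice and 115% in MRL/+, and Npy from 20.4% to 56.8% and 49.1%. Pvalb went the other way, at 46.5% in MRL/lpr, 29.8% in Fn14ko mice and 22.2% in MRL/+. Crh was at 33.7%, 19.2% and 95.2%, and Calb1 stayed between 13.5% and 23.1%. In the order MRL/lpr, Fn14ko and MRL/+, Vip was at 35.0%, 32.1% and 48.9%, Cort at 23.1%, 77.6% and 52.6%, and Cck at 41.2%, 81.1% and 37.0%. REV was not tested.

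The genes whose signal ran most nearly parallel over the 12 mice, after removal of the mean of each dye, were Naxe, Yif1b and Ociad1 for Sst (Pearson r = 0.941, 0.937 and 0.923). They were Idnk, Depp1 and Begain for Pvalb (0.946, 0.945 and 0.938). For Vip they were Nlk and Dab2ip (0.971 and 0.969) and a probe with no gene name (0.971). These are the highest of 17302 values over mice that share arrays and groups, and are a description.

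The receptors of these peptides were called in both directions. Of 15 receptor and binding-protein genes tested, Cckbr, the brain cholecystokinin receptor, was higher in MRL/lpr than in MRL/+ by 1.91 and Crhr1, the main CRH receptor, by 1.57, while Npy2r, the presynaptic Y2 receptor, was lower (-2.34), with adjusted p of 0.00697, 0.00478 and 0.000225. The same 3 genes were called against Fn14ko, at 1.53, 1.52 and -1.98. No somatostatin or Vip receptor of the list was called. The median over the list was -0.10 against MRL/+, next to -0.11 over all genes.

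The enzymes and granins that process peptides and fill dense-core vesicles gave 1 higher and 1 lower gene of 14 tested against MRL/+. Pcsk2, a prohormone convertase, was higher by 0.71 (adjusted p = 0.0215), and Pam, which amidates peptides such as Npy and Vip, was lower at -1.91 (adjusted p = 0.017). Among 16 other neuropeptides, Adcyap1, which encodes the Vip-related peptide PACAP, was higher by 1.21, and Grp and Nts, which encode gastrin-releasing peptide and neurotensin, were lower at -1.07 and -2.26 (adjusted p = 0.0039, 0.0348 and 0.0114). These 3 were also called against Fn14ko, in the same directions. Among 20 other EF-hand calcium-binding proteins, Necab3 (1.36) and Efhd2 (1.13) were higher and Necab2 (-1.54) and Hpca, which encodes hippocalcin (-0.89), were lower.

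Of 25 general markers of GABAergic cells tested against MRL/+, 2 were higher and 5 lower, with a median of -0.30 next to -0.11 over all genes. Their summed signal was 84.1 to 90.8 in MRL/lpr, 89.4 to 109 in Fn14ko and 70.9 to 86.8 in MRL/+, so that Fn14ko lay wholly above MRL/+ and MRL/lpr overlapped both. Gad1 and Gad2, the enzymes that make GABA, differed by 0.51 (adjusted p = 0.106) and -0.05 (adjusted p = 0.89). The higher genes were Lamp5, a marker of neurogliaform cells that cortical excitatory cells also express, at 2.64, and Satb1, a factor of Sst and Pvalb cells, at 1.01. The lowest were Nos1 and Sncg, markers of interneuron subsets, at -1.90 and -1.64. Nos1 read 0.396 to 0.915 in MRL/+, next to dark corner signals of 0.697 and 0.810 in the red MRL/+ mice. Of the lists above, Npy2r (0.834 to 1.34), Pam (0.604 to 2.26) and Nts (0.791 to 1.48) were also dim in MRL/+. So were Cckbr (0.639 to 1.15), Crhr1 (0.941 to 1.53) and Adcyap1 (1.00 to 1.22), which were called higher in MRL/lpr. The differences of these dim genes from MRL/+ are uncertain. Against Fn14ko, Lamp5 was higher by 1.93 and Sncg lower at -1.02, and no other gene of the list was called. Between Fn14ko and MRL/+ no gene was called in any of the lists.

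Some markers of other regions and of excitatory neurons also differed between the groups. Of 7 hippocampal markers tested, 6 were lower in MRL/lpr than in MRL/+ and 5 were lower than in Fn14ko, with medians of -2.01 and -2.08. The summed signal of the 7 was 17.6 to 24.1 in MRL/lpr, 24.2 to 33.1 in Fn14ko mice and 23.7 to 37.8 in MRL/+. The largest part of this sum was the 1 marker not called in either comparison. It read 14.7 to 20.5 in MRL/lpr, 13.6 to 17.9 in Fn14ko mice and 11.9 to 26.6 in MRL/+. The sum therefore says little about the markers that were called. Of 10 markers of cortical excitatory neurons, all quantified, 4 were higher and 3 lower in MRL/lpr than in MRL/+, and the summed signal was 42.9 to 49.1 against 56.6 to 83.2. Of 8 thalamic, 5 cerebellar and 9 choroid plexus markers, 1 each was lower, and of 10 striatal markers none was called. The choroid plexus sum ranged from 7.74 to 102 in MRL/lpr, 14.2 to 186 in Fn14ko mice and 18.6 to 270 in MRL/+. Its largest part was 1 marker that was not called, at 5.13 to 91.2, 9.54 to 159 and 12.2 to 249 in the same order. What part the share of hippocampus, striatum or cortical layers in the samples has in the differences of Npy, Vip, Crh, Pdyn, Pvalb and the receptors was not tested.

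**Figure D5:**
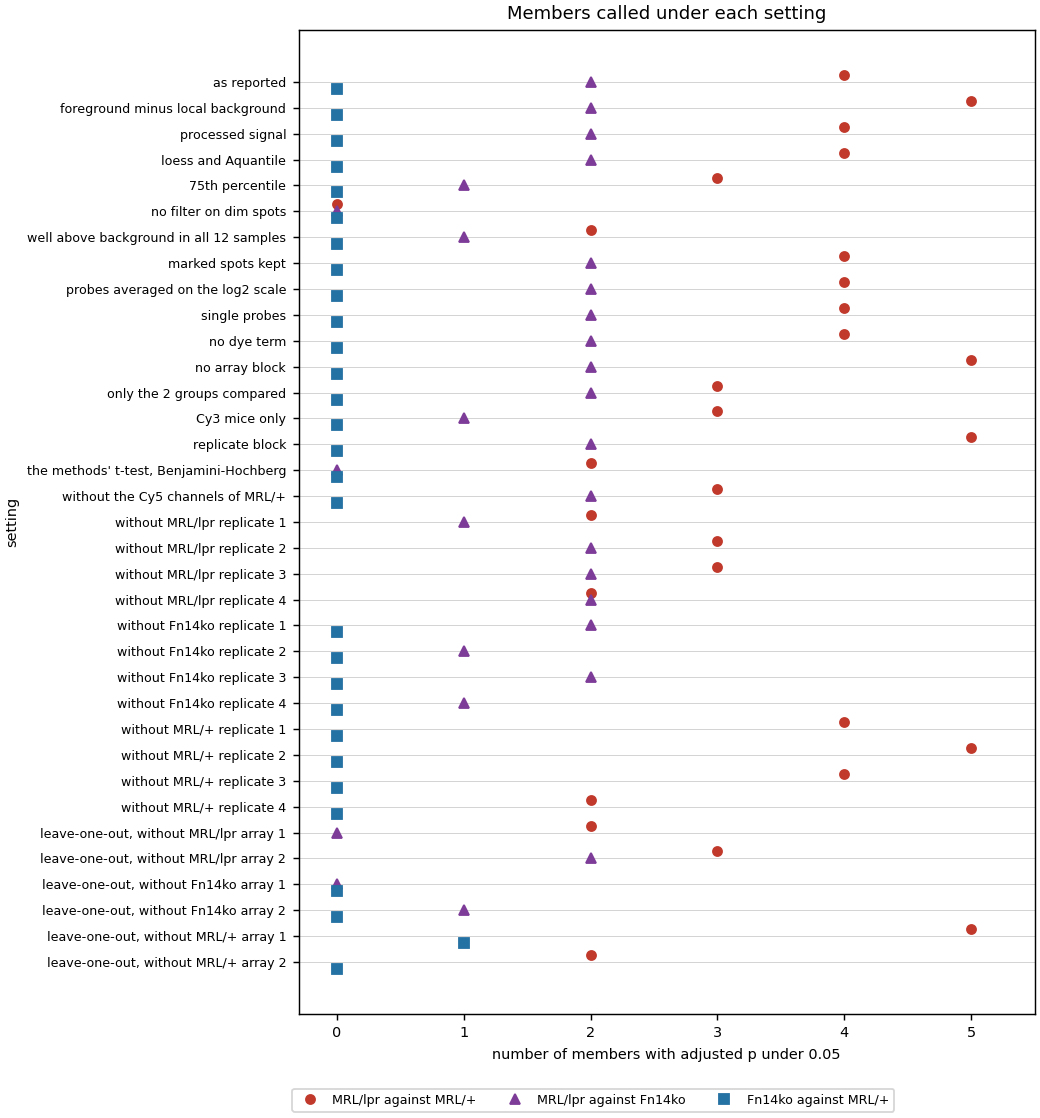
Number of members with an adjusted p under 0.05 (horizontal axis) in the 3 comparisons under each setting (vertical axis), from the analysis as reported to the omission of single mice and arrays. MRL/lpr against MRL/+ gives 2 to 5 members except with no filter on dim spots, where no member is called, and Fn14ko against MRL/+ gives 1 member under 1 setting.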

How the data were processed

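The files used are the scanner output of 6 Agilent 2-colour arrays. The deposited intensity values are the mean foreground and median local background of each spot and dye, with the software's quality marks and its processed signal, read per the file headers with Feature Extraction 12.1.0.3. The study's methods name another version of that software. Probe coordinates are those of mm9 in the files, and 12 of 13 probe accessions matched the same symbol in RefSeq, the other being an Ensembl identifier.

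Background was corrected by normexp (offset 50) in limma 3.58.1 under R 4.3.3. Spots marked uneven or as outliers in any channel, were left out, as were spots whose foreground did not reach 2 times their local background in all 12 samples, following the study's methods. Signals were scaled to the median of the 24255 spots kept in the same channel, and spots and then probes of a gene were averaged on the linear scale, so that a gene's mean follows its probe of higher signal. Log2 signals were fitted by limma with dye as a fixed term, the array as a random block (correlation 0.316) and a variance trend, with 2-sided tests and Benjamini-Hochberg adjustment over all 17302 genes at 0.05. The median standard error was 0.25, and the number of arrays limits precision. The methods call the lpr groups littermates without saying which mice share a litter, and p-values measure the spread between these samples. Exact permutation tests over 70 divisions of 8 mice were 2-sided and ignored the shared arrays. REV used the study's correction with the coefficient of variation pooled over probes, and in addition over spots, as that formula has it.

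The members, the lists of related genes and the tests were chosen with earlier results of these data known. All 10 members and each of their probes are named. Of related genes at most the 2 highest and 2 lowest of those called per list are named, and in addition Gad1 and Gad2, Tnfrsf12a and 3 genes most like Sst, Pvalb and Vip. Alternatives changed the background correction, the scaling, the filters, the merging of probes, the terms and samples of the fit and the test, and left out each mouse and array. The fit without the red MRL/+ mice was added after seeing the data. The model was tested on simulated data with independent noise for each mouse. These data held no array or dye effects, so that test could not check those terms. Figures were drawn with matplotlib 3.10.9 in Python 3.11.15.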

Additional observations from a re-analysis of the deposited data

Results flagged for a closer look

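In MRL/lpr, Vip of mouse 3 (1.97) lay apart from the other 3 mice (2.80 to 2.83), its gap to the nearest being 0.963 of the whole range, past Dixon's 95% limit for 4 values. In Fn14ko, Pdyn of mouse 1 (7.22) lay apart from the others (2.16 to 2.97) with a gap of 0.842 of the range. These were 2 of the 30 sets of 4 mice examined, and chance marks about 1 set in 20.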

How the results depend on the processing

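The numbers of members called were 4 (MRL/lpr compared with MRL/+), 0 (Fn14ko with MRL/+) and 2 (MRL/lpr with Fn14ko), and counts below keep this order. With no filter on dim spots they were 0, 0 and 0 (22, 0 and 32 of 29149 genes called). With spots well above background in all 12 samples they were 2, 0 and 1 of 5 members tested, as Vip, Crh, Pdyn and Calb1 could not be fitted. The member called between MRL/lpr and Fn14ko was then Npy (0.75, adjusted p = 0.044). With the methods' t-test after adjustment the numbers called were 2, 0 and 0. Unadjusted, the t-test gave 5, 1 and 3. The Cy3 mice alone and the 75th percentile each gave 3, 0 and 1, and the fit without the red MRL/+ mice 3, 0 and 2. With single mice or arrays left out the counts ran from 2 to 5, 0 to 1 and 0 to 2. Npy and Vip kept their call against MRL/+ in all of these fits that tested them except the one with no filter on dim spots.

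Whether the replicate numbers pair the mice is not known. Deviations of same-numbered mice correlated between -0.28 and 0.48 once dye was removed, and differently numbered mice were not compared. A replicate block gave 5, 0 and 2 members, adding Pdyn (1.48, adjusted p = 0.0164), and raised the genes called from 2487 to 5596, from 166 to 1204 and from 790 to 1624. Over the other settings these totals ran from 22 to 5183, from 0 to 2821 and from 32 to 2836, and with mice or arrays left out from 783 to 5534, from 2 to 2131 and from 162 to 958. The 75th percentile moved the median of all genes from -0.11 to -0.34 against MRL/+ and the split of calls from 1041 higher and 1446 lower to 706 and 2253. For Fn14ko against MRL/+ the split went from 41 and 125 to 90 and 522 (75th percentile), 120 and 892 (processed signal) and 1114 and 951 (loess).

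With the processed signal 4, 0 and 2 members were called, but Sst (-0.46, lower in MRL/lpr) took the place of Pvalb. All changes of sign were in differences that were not called, and their cause was not tested. For MRL/lpr against MRL/+, Sst was 0.57 with no filter and 0.020 in the Cy3 mice. Cck was -0.30 with the processed signal, -0.0040 in the Cy3 mice and -0.12 without the red MRL/+ mice. Calb1 was 0.19 with the processed signal, 0.44 with no filter and 0.044 by its second probe, and Cort was -0.058 with the 75th percentile and -0.025 with the stricter filter. For Fn14ko against MRL/+, Sst was -0.27, -0.13, -0.11 and -0.13 with the processed signal, the 75th percentile, the stricter filter and the Cy3 mice, and Cck -0.36, -0.090, -0.067 and -0.36, and -0.24 without the red MRL/+ mice. Vip was -0.078 with the 75th percentile and Pvalb -0.12 with the processed signal. Calb1 was 0.23 with the processed signal, 0.63 with no filter and 0.10 by its second probe, and Crh was 0.19 with loess, 0.48 with no filter, 0.13 in the Cy3 mice and 0.040 without the red MRL/+ mice. For MRL/lpr against Fn14ko, Sst, Calb1 and Pdyn were 0.14, 0.035 and -0.17 in the Cy3 mice and Cck was -0.0012 with no filter. With mice or arrays left out, Sst ran from -0.39 to 0.35 and Cort from -0.11 to 0.46 in MRL/lpr less MRL/+. The ranges in Fn14ko less MRL/+ were -0.25 to 0.49 for Sst, -0.064 to 0.41 for Vip, -0.092 to 0.40 for Cck, -0.23 to 0.031 for Calb1 and -0.67 to 0.18 for Crh. For MRL/lpr against Fn14ko they were -0.087 to 0.32 for Cck, -0.19 to 0.073 for Calb1 and -0.026 to 0.68 for Pdyn.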
